A study of Mus musculus with 6 samples.

Results

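Tubb3, Uchl1, Stmn2, Gap43, Nefl, Nefm, Prph, Map1b, Elavl4 and Rtn1 are 10 genes grouped here as general markers of neurons. They were taken by gene symbol from a table of read counts for 20173 mouse genes. RNA had been sequenced from 6 cultures of sympathetic chains, 3 from Slit2fl/fl mice (labelled SLIT2f/f) and 3 from Slit2th mice (labelled SLIT2-knockout), to ask how loss of the guidance protein Slit2 alters sympathetic neurons. All mice were male and 3 weeks old, and both groups carry floxed Slit2 alleles. Slit2th mice in addition carry Th-Cre, so that Cre is expressed under the promoter of Th (tyrosine hydroxylase), and Slit2 is deleted in cells that have used that promoter. Cultures were kept for 4 to 5 days in neural medium with B27 and no further agent is named. The labels give the tissue as sympathetic ganglion and the cell type as neuron, while the study also writes of ganglions as the sequenced material and names dorsal root neurons in its isolation method. The sources used here do not say how many mice made up a library, so p-values measure the spread between these libraries, and no group with Th-Cre and intact Slit2 was analysed here.

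A growing axon is built on bundled microtubules, and a mature one adds neurofilaments that set its calibre. Tubb3 encodes class III beta-tubulin, Map1b a microtubule-associated protein of growing axons, and Stmn2 a stathmin that releases tubulin from microtubule ends in the growth cone. Nefl, Nefm and Prph encode intermediate filament subunits (neurofilament light and medium chains and peripherin, typical of peripheral neurons), Gap43 a membrane phosphoprotein of growth cones, Elavl4 the neuronal RNA-binding protein HuD, Uchl1 the ubiquitin hydrolase PGP9.5 and Rtn1 a reticulon of the endoplasmic reticulum. Several of them are not exclusive to neurons: Map1b, Gap43 and Uchl1 can also be made by Schwann cells or fibroblasts in culture.

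Total counts were 1533367 to 3155406 in Slit2fl/fl and 1255939 to 1999485 in Slit2th, so that 3 counts, taken as the floor of detection, equal 0.951 to 2.39 CPM (the count scaled to a common library total). Intervals and floors cover counting error only. Replicate 1 of each group stood apart: across genes, log2 CPM had Pearson correlations of 0.916 to 0.965 among replicates 2 and 3 of both groups, 0.788 to 0.863 for Slit2fl/fl replicate 1 and 0.818 to 0.874 for Slit2th replicate 1 with the others. Genes rich in G and C were read more in Slit2fl/fl replicate 1 than in the other libraries, with a Spearman correlation across genes of 0.54 between GC content and its deviation from the mean of all libraries, against -0.33 to -0.035 in the other 5. Slit2, the targeted gene, had 139, 85 and 77 counts in Slit2fl/fl and 17, 24 and 27 in Slit2th, which follows the labels. Th, the marker that defines the sympathetic neuron and drives the Cre, had 0 counts in all 6 libraries. Of 12152 genes with at least 1 CPM in at least 3 libraries, 0% passed an adjusted p of 0.05 in edgeR's quasi-likelihood test (the smallest adjusted p was 0.357), and 10.8% had an unadjusted p under 0.05, 485 higher and 824 lower in Slit2th.

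What was left of the neuronal signal was uneven between the genes. Map1b, Tubb3, Uchl1, Stmn2 and Gap43 had 3 counts or more in all 6 libraries, Rtn1, Prph and Nefm in some of them, and Nefl and Elavl4 in none. The number of genes at 3 counts or more was 6, 7 and 5 of 10 in Slit2fl/fl replicates 1 to 3 and 5, 7 and 6 in Slit2th replicates 1 to 3. Together the 10 genes received 18258 of 11393245 counts. Their share of a library was 0.171% in Slit2fl/fl replicate 1 (95% exact binomial interval 0.167 to 0.176) and 0.152% to 0.160% in the other 5 libraries.

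Most of that signal was Map1b, which held 65.8% of the genes' counts in Slit2fl/fl replicate 1 and 86.1% to 89.2% in the others. Without Map1b, the other 9 genes took 0.0587% of the counts in Slit2fl/fl replicate 1 (interval 0.0560 to 0.0614) and 0.0174% to 0.0216% elsewhere. After normalization for library composition (edgeR's TMM), the 10 genes summed to 1727, 1573 and 1526 CPM in the controls and 1771, 1478 and 1472 CPM in Slit2th. The group means were 1609 ± 105.0 and 1574 ± 171 CPM (SD, n = 3 each), and the groups overlapped. Without Map1b, the controls had 591, 191.5 and 197.5 CPM and Slit2th 191.9, 205 and 187.0 CPM, with means of 327 ± 229 and 194.7 ± 9.42 CPM (SD, n = 3 each). The Slit2fl/fl mean and its spread rested on replicate 1: the Slit2th mean was 0.596 of it over all libraries and 1.01 of it over replicates 2 and 3 alone. In such bulk RNA, fewer neurons, less RNA per neuron and reads of these genes from cells other than neurons cannot be told apart.

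**Figure D1:**
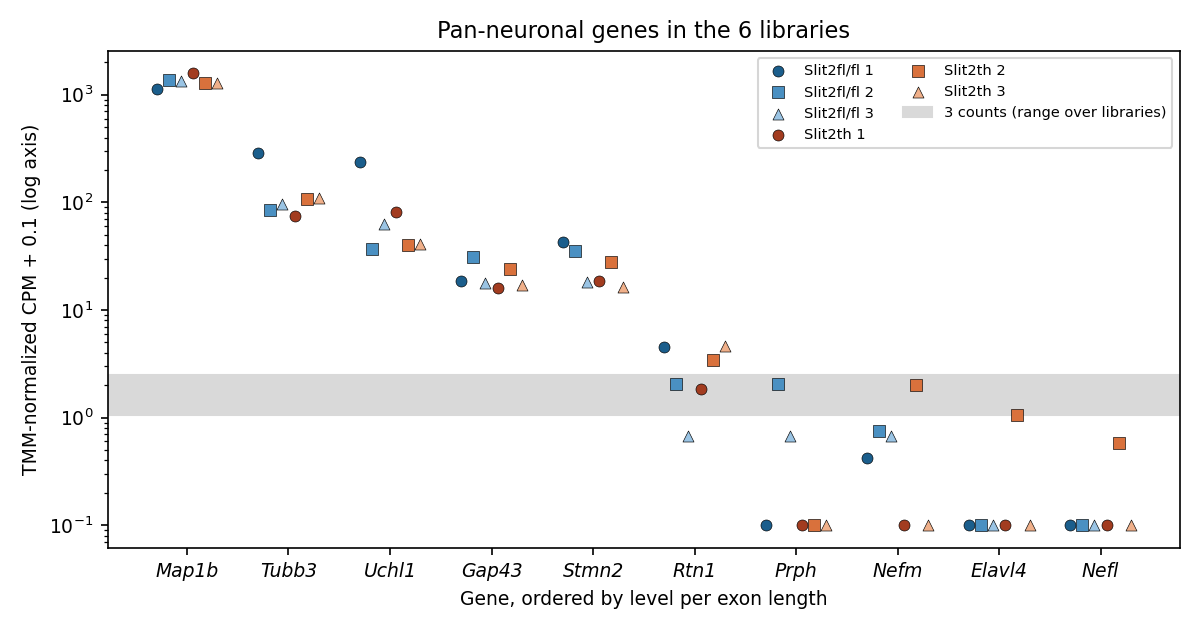
TMM-normalized CPM of the 10 genes in each of the 6 libraries, with 0.1 added for the log axis; blue marks are Slit2fl/fl and orange marks Slit2th, and circles, squares and triangles are replicates 1, 2 and 3. The grey band is the level of 3 counts (0.951 to 2.39 CPM): 5 genes lie above it in every library, Rtn1 lies around it, and 4 genes lie at or under it.

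**Figure D2:**
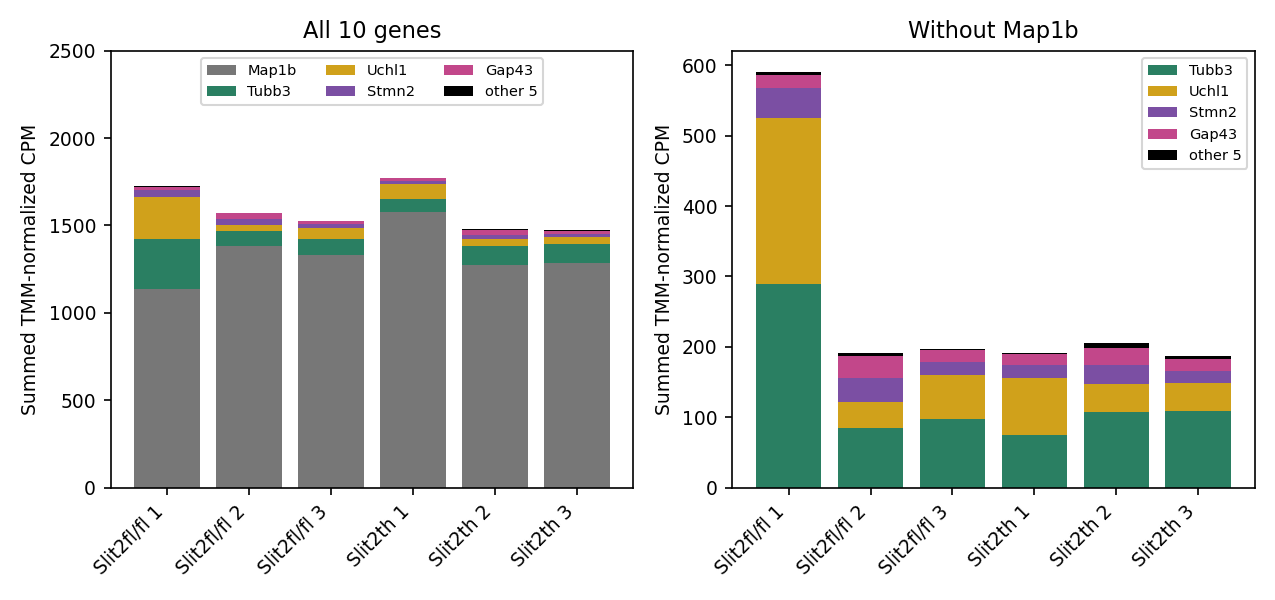
Summed TMM-normalized CPM per library, for all 10 genes (left) and without Map1b (right); bars are stacked by gene and start at 0. The left bars run from 1472 to 1771 CPM with Map1b as their main part, and on the right Slit2fl/fl replicate 1 stands at 591 CPM against 187.0 to 205 CPM in the other 5 libraries.

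Of the microtubule genes, Map1b (minus strand, chr13:99421446-99516540 of GRCm38) was at 1136, 1382 and 1328 CPM in Slit2fl/fl, against 1579, 1273 and 1285 CPM in Slit2th. The means were 1282 ± 130 and 1379 ± 173 CPM (SD, n = 3 each), with Slit2fl/fl replicate 1 the lowest and Slit2th replicate 1 the highest library. The log2 fold change, Slit2th minus Slit2fl/fl as in all that follow, was 0.11 (SE 0.31, 95% interval -0.60 to 0.81), with an adjusted p of 0.900 by edgeR's quasi-likelihood test. Its sign turned with an offset for gene length (-0.13) and without replicate 1 of both groups (-0.10).

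Tubb3 (plus strand, chr8:123411424-123422015) was at 289, 84.1 and 97.1 CPM in Slit2fl/fl, against 74.8, 107.1 and 108.7 CPM in Slit2th. Slit2fl/fl replicate 1 stood at 2.66 times the next library, and the remaining libraries of both groups intermingled. The means were 156.8 ± 115 and 96.9 ± 19.1 CPM (SD, n = 3 each). The log2 fold change of -0.70 (SE 0.50, 95% interval -1.83 to 0.44) had an adjusted p of 0.591 by edgeR's quasi-likelihood test. It was 0.10 without Slit2fl/fl replicate 1 and -0.06 when offsets were corrected for GC content, of which Tubb3 exons have 57.9%.

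Stmn2 (plus strand, chr3:8509360-8561606) was at 43.1, 34.9 and 18.2 CPM in Slit2fl/fl, against 18.5, 27.6 and 16.3 CPM in Slit2th. Here 2 of the Slit2fl/fl libraries were above all Slit2th libraries and the remaining one was within their range. The log2 fold change was -0.62 (SE 0.45, 95% interval -1.63 to 0.39), with an adjusted p of 0.591 by edgeR's quasi-likelihood test. It was negative in all 21 alternative settings, from -0.99 to -0.27, with no call in any.

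The intermediate filament genes were close to absent. Nefl (plus strand, chr14:68083863-68089095) had 0 counts in 5 libraries and 1 in Slit2th replicate 2. Nefm (minus strand, chr14:68082590-68124846) had 1 count in each Slit2fl/fl library and 0, 4 and 0 in Slit2th replicates 1 to 3. The 2 genes share 1108 exon bases on opposite strands, and since the strand setting of the counting is not given in the sources used here, reads from that stretch cannot be assigned to either. Prph (plus strand, chr15:99055174-99058978) had 0, 3 and 1 counts in Slit2fl/fl and 0 in each Slit2th library. A count of 0 allows up to 0.951 to 2.39 CPM, depending on the library, so a difference between the groups in these genes was not detectable at this depth. None of them reached 1 CPM in 3 libraries, and they were not tested.

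Among the remaining genes, Gap43 (minus strand, chr16:42248442-42340651) was at 18.5, 31.1 and 17.6 CPM in Slit2fl/fl, against 15.8, 23.8 and 16.9 CPM in Slit2th. Replicate 2 was the highest library of each group, and the groups overlapped. The log2 fold change of -0.23 (SE 0.42, 95% interval -1.18 to 0.71) had an adjusted p of 0.833 by edgeR's quasi-likelihood test. Its sign turned with an offset for gene length (0.03) and without Slit2fl/fl replicate 2 (0.07).

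Elavl4 (minus strand, chr4:110203722-110351909) had 2 counts in Slit2th replicate 2 and 0 in the other 5 libraries, and was not tested. Nefl, Nefm, Prph and Elavl4 together had 14 counts, 7 of them in Slit2th replicate 2.

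Uchl1 (plus strand, chr5:66676091-66687234) was at 235, 36.9 and 63.0 CPM in Slit2fl/fl, against 81.0, 40.0 and 40.6 CPM in Slit2th. Replicate 1 was the highest library of each group, and Slit2fl/fl replicate 1 stood at 2.91 times the next library. The log2 fold change of -1.07 (SE 0.66, 95% interval -2.56 to 0.43) was the largest in size of the 6 genes tested, with an adjusted p of 0.547 by edgeR's quasi-likelihood test. It was 0.11 without Slit2fl/fl replicate 1 and -0.39 with GC-corrected offsets (exon GC 56.8%). An antisense gene, Uchl1os, overlaps 295 of its exon bases and was not analysed here, so its reads cannot be told from those of Uchl1 there.

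Rtn1 (minus strand, chr12:72211752-72409054) had few reads, 14, 3 and 1 counts in Slit2fl/fl and 2, 7 and 8 in Slit2th, or 4.47, 1.94 and 0.568 CPM against 1.76, 3.33 and 4.51 CPM. The groups overlapped, with a log2 fold change of 0.40 (SE 0.81, 95% interval -1.43 to 2.23) and an adjusted p of 0.852 by edgeR's quasi-likelihood test. It was -0.11 without Slit2fl/fl replicate 3, -0.33 without replicate 3 of both groups and 1.61 without replicate 1 of both groups.

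Per exon length (counts divided by exon length and rescaled to the same total in every library), the mean over 6 libraries was 211 for Map1b (range 178 to 229), 172 for Tubb3 (88.0 to 385), 126 for Uchl1 (55.0 to 358), 34.3 for Gap43 (22.9 to 49.6) and 11.9 for Stmn2 (7.25 to 19.1). These 5 ranked between 511 and 5375 among 20159 genes with a length. Rtn1 followed at 1.44 (0.277 to 2.55), Prph at 0.509 (0 to 2.36), Nefm at 0.262 (0 to 0.925), Elavl4 at 0.0827 and Nefl at 0.0659. Ranges over the libraries overlapped between Map1b and Tubb3, between Tubb3 and Uchl1, and from Rtn1 downward. Within libraries, Map1b was above Tubb3 in 5 of 6, and Tubb3 above Uchl1 in 5 of 6. The order of neighbours with overlapping ranges was not tested. Uchl1 and Tubb3 changed places when the longest transcript was taken as the length (134.9 and 134.3). The ranges of Uchl1 and Gap43, of Gap43 and Stmn2 and of Stmn2 and Rtn1 did not overlap.

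The promoters of the top 2 genes in this order and of the nearly silent Prph are shown so that the sequence ahead of their RefSeq starts can be read. Each is the 250 bases before the RefSeq start (GRCm38.p6), 5′ to 3′ on the gene's strand. Capitals mark the TATA box letters TATAAA, the GC box letters GGGCGG and the letters CCAAT, each searched on both strands. The windows are chr13:99516603-99516852 (minus strand) for Map1b, chr8:123411303-123411552 (plus strand) for Tubb3 and chr15:99054924-99055173 (plus strand) for Prph. The Tubb3 window reaches past the gene start given above (chr8:123411424), which is from another annotation.
Map1b: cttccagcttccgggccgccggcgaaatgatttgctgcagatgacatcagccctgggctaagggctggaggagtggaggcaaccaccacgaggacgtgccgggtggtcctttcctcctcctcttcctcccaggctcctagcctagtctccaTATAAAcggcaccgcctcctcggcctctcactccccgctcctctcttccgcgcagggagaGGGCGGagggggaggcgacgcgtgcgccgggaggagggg
Tubb3: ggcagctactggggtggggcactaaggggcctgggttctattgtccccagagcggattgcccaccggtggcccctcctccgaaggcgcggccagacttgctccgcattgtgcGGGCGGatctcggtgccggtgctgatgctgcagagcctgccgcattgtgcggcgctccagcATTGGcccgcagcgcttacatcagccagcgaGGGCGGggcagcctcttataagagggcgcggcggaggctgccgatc
Prph: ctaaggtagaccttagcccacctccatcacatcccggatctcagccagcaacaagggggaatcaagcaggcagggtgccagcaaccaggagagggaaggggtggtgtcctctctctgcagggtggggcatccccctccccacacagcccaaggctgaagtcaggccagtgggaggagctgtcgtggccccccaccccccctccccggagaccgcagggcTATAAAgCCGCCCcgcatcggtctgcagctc

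The Map1b window holds 19 CpG dinucleotides (GC 66.4%), 1 GC box and a TATAAA that starts at position -99 from the RNA start. The Tubb3 window holds 21 CpG (GC 68.0%), 2 GC boxes and 1 CCAAT box but no TATAAA. Prph has 7 CpG (GC 65.2%), 1 GC box and a TATAAA at position -31. Over 32536 mouse promoter windows of the same length, TATAAA on either strand was found in 12.3%, GGGCGG in 33.0% and CCAAT in 33.8%, and the median was 6 CpG. The matches describe these letters only and are no sign that a factor binds. The Uchl1 window, with 7 CpG, has none of the 3 motifs.

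Between the genotypes, 0 of the 6 genes tested passed, against 0% of all tested genes. None had an unadjusted p under 0.05, against 10.8% of all tested genes. In 4 of the 6 the log2 fold change was negative, and their median was -0.43 against -0.05 over all tested genes. In all 6 the Slit2fl/fl and Slit2th libraries overlapped; of all tested genes, 9.74% had every Slit2th library below and 8.72% every Slit2th library above the Slit2fl/fl libraries. The exact permutation p-values of log2 CPM, two-sided, ran from 0.30 for Stmn2 to 0.70 for Uchl1, where 0.10 is the smallest that 3 libraries against 3 allow. The intervals are wide: for Tubb3 and Uchl1 they reach from a fall of 1.83 and 2.56 to a rise of 0.44 and 0.43 on the log2 scale. Without replicate 1 of both groups, 3.29% of the genes passed the adjusted threshold, 88 higher and 289 lower, and 0 of the 6 genes were among them; the log2 fold changes were then 0.24 for Tubb3, -0.33 for Uchl1, -0.27 for Stmn2, -0.26 for Gap43, -0.10 for Map1b and 1.61 for Rtn1.

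**Figure D3:**
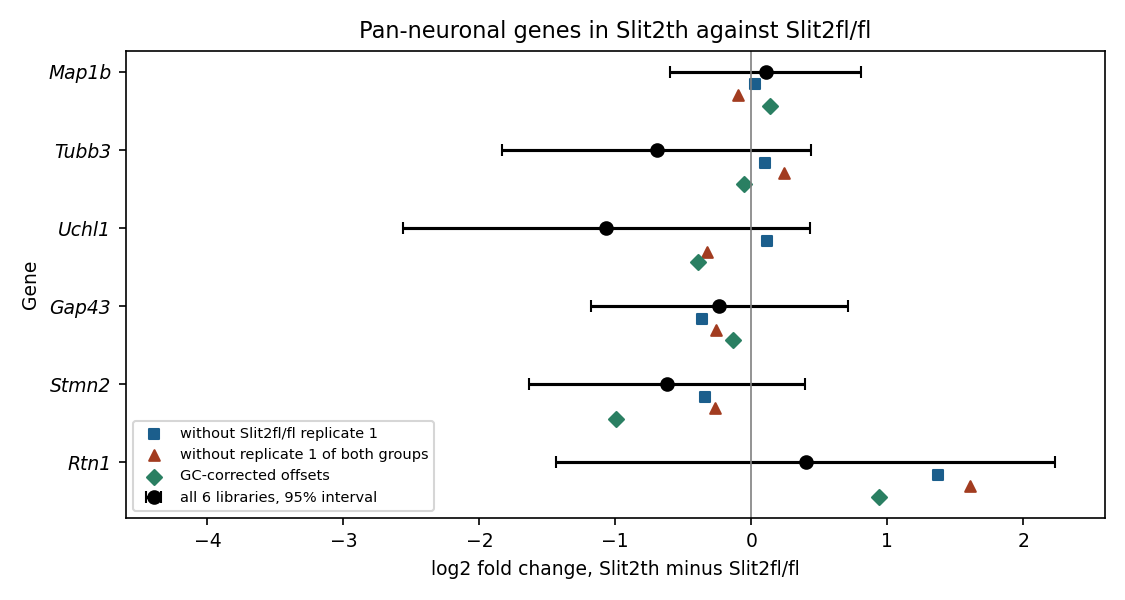
Log2 fold change (Slit2th minus Slit2fl/fl) of the 6 tested genes; black points with bars are the fit to all 6 libraries with its 95% interval, and coloured marks are fits without Slit2fl/fl replicate 1, without replicate 1 of both groups and with GC-corrected offsets. Every interval crosses 0, and the marks of Tubb3 move from -0.70 to between -0.06 and 0.24.

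The high library, Slit2fl/fl replicate 1, was not high in all of the genes. Against the median of the other 5 libraries, its CPM was 5.80 times as high for Uchl1, 2.98 for Tubb3, 2.33 for Stmn2 and 2.30 for Rtn1, 1.05 for Gap43 and 0.855 for Map1b. Related beta-tubulins were split. The ratio was 1.04 for Tubb2a, 1.05 for Tubb5 and 1.34 for Tubb2b, but 3.13 for Tubb6 and 3.41 for Tubb4b, near that of Tubb3. For Tubb4b, Slit2th replicate 1 was higher than Slit2fl/fl replicate 1 (191 against 137 CPM). For Rtn1, Slit2th replicate 3 was at 4.51 CPM, against 4.47 CPM in Slit2fl/fl replicate 1. The myelin gene Mbp, made by Schwann cells, was at 9.05 times the median there, and the synuclein Sncg, of peripheral neurons, at 7.01 times. Glia markers as a list were not raised as Mbp was: the sum of 16, highest left out, was 4886 CPM there, against 4867 to 5474 CPM in the other 5. Mbp, Sncg and the relatives were chosen for this comparison after their values were seen. The part of GC content or of cell makeup in this library's values was not tested.

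Other neuronal genes, from lists drawn up around the 10 genes, were also unevenly detected. Of 32 other genes of the neuronal cytoskeleton and axon growth, 18 had 3 counts or more in all libraries and 5 in none, with Nefh (neurofilament heavy chain) and Stmn4 at 0 throughout. The highest per length were Tuba1a, Marcks and Dclk1, which are also made by cells other than neurons. Tuba1a was at 1151 ± 277 CPM in Slit2fl/fl, against 1767 ± 295 CPM in Slit2th, Marcks at 2578 ± 331 and 2655 ± 559 CPM, and Dclk1 at 2582 ± 1138 and 3815 ± 270 CPM (SD, n = 3 each). Of 24 tested, 14 were positive and 10 negative in log2 fold change (median 0.06, against -0.05 over all tested genes), 0 passed after adjustment, and 2 higher and 5 lower had an unadjusted p under 0.05, as did 10.8% of all tested genes, in either direction.

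Those 7 are named after their values were seen. The lower ones were Sncg, the kinesin Kif1a, the calponin-related Tagln3, the transport adaptor Fez1 and the collapsin response mediator Crmp1, and the higher ones Rufy3 and Dpysl4. Sncg was at 90.1, 14.9 and 33.5 CPM in Slit2fl/fl, against 5.28, 12.9 and 6.20 CPM in Slit2th. Its log2 fold change was -2.48 (SE 0.69), and -1.34 without replicate 1 of both groups. Kif1a was at 89.1, 20.1 and 48.3 CPM in Slit2fl/fl, against 18.5, 17.1 and 18.6 CPM in Slit2th. Its log2 fold change was -1.54 (SE 0.53), and -0.91 without Slit2fl/fl replicate 1. Tagln3 had 7, 14 and 13 against 0, 2 and 2 counts, with -2.88 (SE 0.93), and Crmp1 11, 3 and 3 against 1, 0 and 1 counts. Fez1, with 37, 13 and 20 against 2, 7 and 6 counts, stayed between -2.15 and -1.56 over the alternatives. Rufy3, a regulator of axon formation, was at 32.3, 40.8 and 31.2 CPM in Slit2fl/fl, against 51.1, 88.6 and 86.2 CPM in Slit2th. Its log2 fold change of 1.12 (SE 0.37) passed in 1 alternative, without replicate 1 of both groups (1.27, adjusted p of 0.0160 by edgeR's quasi-likelihood test). In that alternative 3.29% of all genes passed. Dpysl4 rested on Slit2th replicate 1, with 17, 1 and 2 against 80, 3 and 7 counts, and fell from 3.17 to 0.02 in the lowest of its alternatives. The adjusted p of the 7 over all libraries was 0.422 to 0.459.

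Of 14 other neuronal RNA-binding genes, 5 were at 3 counts or more in all libraries, and Rbfox3 (the neuronal marker NeuN) and Nova2 were at 0 in all. The highest, Rbfox2, Celf4 and Ptbp2, are not limited to neurons, and stood at 156, 142 and 32.8 CPM in Slit2fl/fl, against 303, 217 and 49.0 CPM in Slit2th. Of 6 tested, 3 were positive and 3 negative in log2 fold change (median 0.24), and 0 passed before or after adjustment. Rbfox2 passed as higher without replicate 1 of both groups, 1 of 5 tested there, where 3.29% of all genes passed. Elavl3, a neuronal relative of Elavl4 named after its values were seen, had 9, 5 and 0 counts in Slit2fl/fl and 0, 2 and 0 in Slit2th.

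Broadly expressed relatives of the 10 genes were read in depth. Of 16 such genes, 14 had 3 counts or more in all libraries, led by the intermediate filament gene Vim (14637 and 18706 CPM in Slit2fl/fl and Slit2th), the tubulin Tubb5 (1940 and 1789 CPM) and the reticulon Rtn4 (1827 and 2576 CPM). Of 15 tested, 8 were positive and 7 negative in log2 fold change (median 0.01), with 0 passing after adjustment and 1 lower before it. Without replicate 1 of both groups, the tubulin Tubb4b passed as lower, 1 of 15 tested there, where 3.29% of all genes passed.

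Genes of synaptic vesicles and secretory granules were sparse: 4 of 24 had 3 counts or more in all libraries and 10 in none, and they summed to 67.0 to 161 CPM over the libraries. Cplx2, Vamp2 and Scg3 were the highest, at 48.1, 26.8 and 12.4 CPM in Slit2fl/fl, against 49.3, 15.7 and 9.85 CPM in Slit2th. Of 9 tested, 4 were positive and 5 negative in log2 fold change (median -0.31), with 0 passing after adjustment and 1 lower before it.

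Few identity genes of particular neuron types were detected. Of 14 sympathetic identity genes, 11 had 3 counts in no library, and the list summed to 13.1 to 19.4 CPM in Slit2fl/fl, against 15.8 to 28.2 CPM in Slit2th. Th and the receptor Ret were at 0 throughout. The highest was Slc18a2, the vesicular monoamine transporter, at 8.05 and 15.0 CPM, ahead of Gata2 at 5.55 and 5.44 CPM and Insm1 at 0 and 0.986 CPM. Of 15 sensory identity genes, 10 had 3 counts in no library, and Runx1, Ntrk3 and Calca were the highest. Runx1, also a blood cell regulator, was at 69.7 and 112 CPM and Ntrk3 at 7.55 and 13.1 CPM, while Calca (the peptide CGRP) had 6 counts, all in Slit2fl/fl replicate 2. In each of the 2 lists, 2 genes were tested and 0 passed before or after adjustment.

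**Figure D4:**
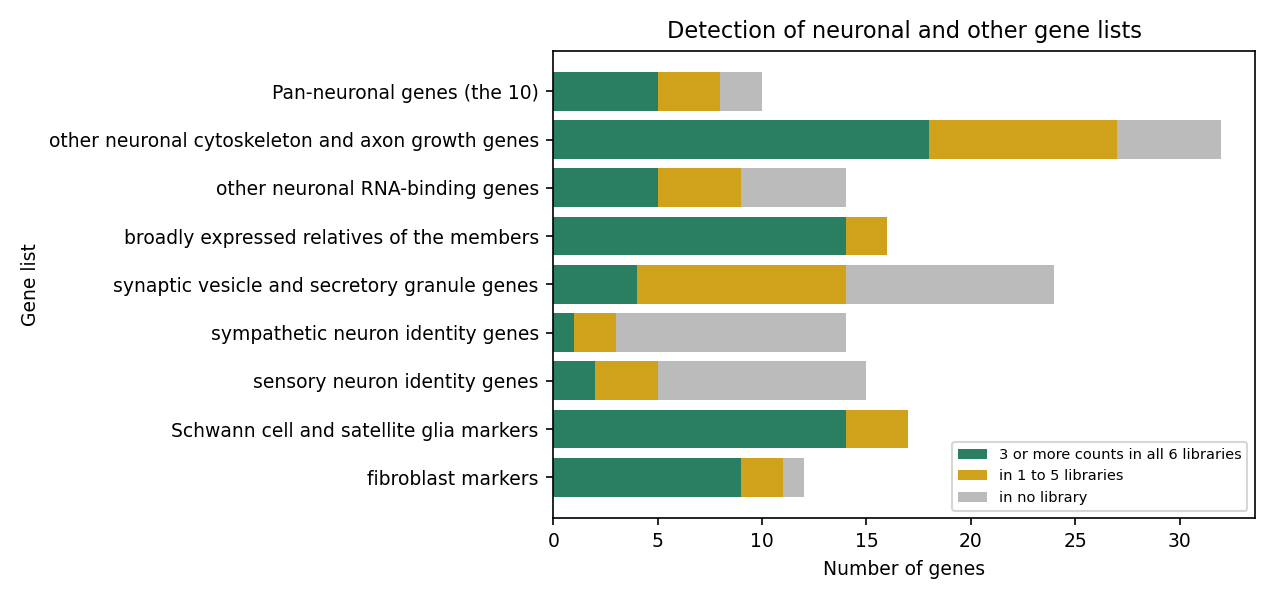
Number of genes per list with 3 counts or more in all 6 libraries (green), in 1 to 5 libraries (yellow) or in none (grey). Of the 10 pan-neuronal genes 5 are green, of the sympathetic identity genes 1 of 14, and of the Schwann cell and satellite glia markers 14 of 17.

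Glia and fibroblast markers summed to more CPM than the 10 genes in every library, and the other lists below to less. Schwann cell and satellite glia markers, 14 of 17 at 3 counts or more in all libraries and none of them at 0 in all, included S100b (1906 CPM in Slit2fl/fl, against 1265 CPM in Slit2th) and Cdh19 (908 and 1765 CPM). With the highest marker left out, the other 16 summed to 4886, 4973 and 5460 CPM in Slit2fl/fl, against 5474, 5013 and 4867 CPM in Slit2th. These partial sums overlapped between the groups and do not stand for the glial signal as a whole. Fibroblast markers (12 genes, led by Col1a2, Dcn and Col1a1) summed to 2579 to 3539 CPM in Slit2fl/fl, against 3356 to 5004 CPM in Slit2th. Macrophage markers (13 genes, led by Lyz2, Aif1 and Tyrobp) summed to 32.4 to 92.9 and 121 to 678 CPM, with all 10 tested positive and 6 of them under an unadjusted p of 0.05, against 485 higher among all 12152 genes tested. Endothelial markers (8 genes, led by Emcn, Cdh5 and Pecam1) summed to 18.7 to 32.3 and 15.0 to 19.5 CPM, and smooth muscle and pericyte markers (8 genes, led by Pdgfrb, Acta2 and Mylk) to 93.8 to 215 and 73.3 to 248 CPM. Proliferation markers (14 genes, led by Pcna, Rrm2 and Top2a) summed to 398 to 522 and 197 to 366 CPM. Of the 14, 13 were negative (median log2 fold change -0.79, against -0.05 over all tested genes). At an unadjusted p under 0.05, 3 of these 14 were lower, against 824 lower among all 12152 genes tested. At that threshold 3 of 10 fibroblast markers tested were higher, and 2 of 16 glia and 1 of 4 endothelial markers lower. No gene of these lists passed after adjustment over all 6 libraries. Without replicate 1 of both groups, 3.29% of all genes passed. In these lists, Cdh19 and Lum (fibroblast) then passed as higher and S100b and Ccnb1 (proliferation) as lower in Slit2th. They were among 14 glia, 10 fibroblast and 13 proliferation markers tested in that setting. The part of these cell types in the values of the 10 genes was not tested.

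The genes whose log2 CPM over the 6 libraries was most like the mean of the 6 tested genes were Pgd (Pearson r = 0.999), Slc25a23 (0.997), H6pd (0.996), Eef2k (0.993) and Cdca8 (0.991). All 5 were highest in Slit2fl/fl replicate 1, as in Pgd, an enzyme of the pentose phosphate pathway, at 179 CPM there against 60.7 to 80.9 CPM elsewhere. The likeness is given as a description over 6 points, chosen from 12152 genes.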

How the data were processed

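The authors isolated RNA with Trizol and a Qiagen column, made libraries with the Illumina TruSeq kit, aligned reads with HISAT2 and deposited 1 table of whole-number read counts per gene, not normalized. The paper names mm10 and the submitters' processing notes name GRCm39. The counting program, strand setting and annotation release are not given in the sources used here. Of 20173 identifiers, 20159 were matched to GENCODE M21 (GRCm38), which gave positions, exon lengths and GC content; promoters are from RefSeq (GRCm38.p6), with an entry for Tubb3, Uchl1, Prph, Map1b, Elavl4 and Rtn1.

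Counts were normalized by TMM in edgeR 4.0.16 (R 4.3.3; limma 3.58.1 and DESeq2 1.42.0 for alternatives). Genes with at least 1 CPM in at least 3 libraries entered edgeR's quasi-likelihood test, fitted over all 6 libraries without covariates, with Benjamini-Hochberg adjustment at 0.05. The test was checked on simulated counts with a mean profile shared by all libraries. Those counts held neither the GC trend nor the deviations of replicate 1 seen here. Levels are TMM-normalized CPM, and shares carry exact binomial intervals. Total counts per library, 1255939 to 3155406, limit precision for genes of few counts. Groups follow the genotype labels, and 3 libraries a group are too few to test for outlying samples.

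The 10 genes and all lists were chosen with earlier results of these data known. Named are the 10 genes, Slit2, up to 3 genes per list of highest CPM per kilobase, list genes past the adjusted threshold, and the 5 genes most like the tested ones; others were chosen after their values were seen, as marked in the text and as are the list genes named for being at 0 (Nefh, Stmn4, Rbfox3, Nova2, Th and Ret). A few list genes are not reported here, and 1 is left out of the summed glia markers. Alternatives were other normalizations, filters, tests, GC or length offsets, the replicate number as a block, and libraries left out.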

Additional observations from a re-analysis of the deposited data

How the results depend on the processing

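Over all genes, the count passing the adjusted threshold was 0, and it was 7 without a filter, 34 by DESeq2, 17 by edgeR's exact test and 0 to 377 when libraries were left out, the upper end without replicate 1 of both groups; limma-voom and the newer quasi-likelihood fit gave 0. Tubb3, Uchl1, Stmn2, Gap43 and Map1b were fitted in 21 alternatives, Rtn1 in 20, and Nefl, Nefm, Prph and Elavl4 in 1, without a filter; none of them passed in any. Stmn2 kept its sign in all 21. The sign turned with length-corrected offsets for Gap43 (0.026) and Map1b (-0.13). When libraries were left out, the log2 fold change ran from -1.13 to 0.24 for Tubb3, -1.48 to 0.11 for Uchl1, -0.44 to 0.074 for Gap43, -0.10 to 0.19 for Map1b and -0.33 to 1.61 for Rtn1; the cause was not tested. The log2 ratio of the group means of the summed CPM was -0.03, and -0.12 to 0.03 under its 12 alternatives.

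Same-numbered libraries had correlated deviations of 0.292, 0.245 and 0.0808. Slit2fl/fl replicate 2 reached 0.255 with Slit2th replicate 3, so the numbers do not pair every library. With the replicate block, 0 genes passed, and 1614 had an unadjusted p under 0.05. With the block the log2 fold change was -0.45 for Tubb3 and -0.70 for Uchl1. For Nefl, Nefm, Prph and Elavl4, depth limited the detection of a difference between the groups.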
